A study of Mus musculus with 4 samples.

Results

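Rab, Arf and Arl GTPases, sorting nexins, Vps sorting subunits and Tbc1d proteins move membrane between the compartments of the cell, and this account covers the changed accessible regions assigned to their genes in murine long-term hematopoietic stem cells (LT-HSCs) with and without Sin3B. A region was taken when the gene name the authors had paired with it began with Rab, Arf, Arl, Snx or Vps followed by a digit, or with Tbc1d. This gave 59 of the 5332 peaks in the deposited table, assigned to 48 genes. By family there were 26 peaks at 22 Rab-named genes, 6 peaks at 6 Arl-named genes, 8 peaks at 7 Snx genes, 7 peaks at 4 Vps genes and 12 peaks at 9 Tbc1d genes. None of the 6 Arf genes had a peak in the table. The names took in 2 antisense transcripts, Rab10os and Rab11fip4os1, the Rab11 effector Rab11fip3, and Arl6ip1, which shapes the endoplasmic reticulum and is not a GTPase.

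A small GTPase of the Rab, Arf or Arl kind is a switch that sits on a membrane when bound to GTP and recruits the motors, tethers and coats that move or fuse a vesicle. Tbc1d proteins carry the TBC domain, which in most of them speeds GTP hydrolysis by a Rab and so turns it off. Sorting nexins bind phosphoinositides on endosomes, and Vps proteins, first found in yeast mutants that missorted vacuolar enzymes, form the retromer, HOPS, CORVET, GARP, EARP and ESCRT complexes that sort, tether or bend endosomal membrane. In stem cells this traffic sets how long receptors such as Kit stay at the surface and feeds lysosomes and autophagy.

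Accessibility was measured by ATAC-Seq, in which a transposase inserts adapters where DNA is open. Each genotype, Sin3B+/+ and Sin3B-/-, had 2 libraries of LT-HSCs, sorted from bone marrow of C57BL/6 mice as L-S+K+Flk2-CD48-CD150+ cells at homeostasis. The Sin3B-/- cells came from Sin3B-flox animals carrying Vav1-iCre, which deletes throughout the blood system and not in LT-HSCs alone. The Sin3B+/+ cells are labelled wild type, and the authors also name these control LT-HSCs Sin3BF/F, that is, with the floxed allele. Each library pooled 2 mice, for 8 mice in all, so differences between single mice are not seen. Ages of these mice, and whether the controls carried the Cre, were not given in the sources used here. Sin3B itself is a scaffold that brings histone deacetylases to chromatin. The gene Sin3b had 0 peaks in the table, so its deletion could not be checked from these values. Of 20 LT-HSC marker genes, 8 had a peak in the table (11 peaks), and of 27 markers of other blood cells 4 had one (Itga2b, Csf1r, Pf4 and Klf1, 6 peaks). All 17 of these marker peaks were higher in Sin3B-/-, as were 95.7% of all peaks in the table. Since the table lists changed peaks only, the marker peaks do not show how pure the sort was. In bulk libraries, more open chromatin per cell and another mix of sorted cells cannot be told apart.

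The sequences of 12 regions are shown first, each 300 bases from the GRCm38.p6 build and written 5′ to 3′. The first 6 are RefSeq promoters, from 250 bases before to 50 bases after the start, of the Rab5 paralogues, Rab1a, Arl16 and Rab8a. The Rab promoters are shown because they lie under the 5 most accessible peaks of the set, and that of Arl16 because another traffic gene, Hgs, shares it. All 300 bases of each lie inside its peak. Rab5a is on the plus strand (chr17:53478984-53479283), Rab5b on the minus strand (chr10:128696219-128696518), Rab5c on the minus strand (chr11:100738166-100738465), Rab1a on the plus strand (chr11:20201162-20201461), Arl16 on the minus strand (chr11:120467551-120467850) and Rab8a on the plus strand (chr8:72160950-72161249). Capitals mark matches on either strand to 12 motifs searched by their letters. These were CACGTG (E-box), GCGCATGC (part of the NRF1 element), CCGGAAG (ETS), TGACGTCA (cyclic AMP response element), GGGCGG (the GC box of SP and KLF factors), CCAAT (the element of NF-Y), TGANTCA (AP-1 family), AGATAA (the element of GATA factors), TGTGGTTT (RUNX), TTTCGCGC (E2F), TTTGAA (cell cycle homology region) and AGGTGGCAG (part of the CTCF core), and none of them contains another.
Rab5a promoter: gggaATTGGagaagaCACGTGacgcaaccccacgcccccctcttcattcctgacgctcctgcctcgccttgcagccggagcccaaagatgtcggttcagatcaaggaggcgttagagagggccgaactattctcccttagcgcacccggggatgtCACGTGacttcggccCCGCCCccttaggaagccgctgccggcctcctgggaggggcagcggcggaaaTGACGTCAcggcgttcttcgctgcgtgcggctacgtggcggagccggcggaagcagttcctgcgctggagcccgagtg
Rab5b promoter: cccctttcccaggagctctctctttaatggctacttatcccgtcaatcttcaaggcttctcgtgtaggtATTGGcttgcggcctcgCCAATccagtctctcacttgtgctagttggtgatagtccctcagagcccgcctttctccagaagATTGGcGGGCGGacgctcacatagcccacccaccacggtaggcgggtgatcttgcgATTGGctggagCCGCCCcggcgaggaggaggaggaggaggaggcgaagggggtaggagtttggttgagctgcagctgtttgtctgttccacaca
Rab5c promoter: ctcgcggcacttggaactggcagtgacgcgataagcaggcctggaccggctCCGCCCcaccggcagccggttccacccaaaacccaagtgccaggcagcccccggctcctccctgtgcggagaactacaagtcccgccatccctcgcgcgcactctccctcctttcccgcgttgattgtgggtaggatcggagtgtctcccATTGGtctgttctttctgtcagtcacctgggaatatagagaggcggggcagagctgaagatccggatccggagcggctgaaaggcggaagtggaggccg
Rab1a promoter: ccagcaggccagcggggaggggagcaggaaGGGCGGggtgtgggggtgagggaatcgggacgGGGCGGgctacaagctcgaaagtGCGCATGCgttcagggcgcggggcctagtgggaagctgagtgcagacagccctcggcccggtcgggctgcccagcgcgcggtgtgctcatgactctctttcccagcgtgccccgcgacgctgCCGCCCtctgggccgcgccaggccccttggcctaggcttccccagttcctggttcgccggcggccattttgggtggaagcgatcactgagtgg
Arl16 promoter: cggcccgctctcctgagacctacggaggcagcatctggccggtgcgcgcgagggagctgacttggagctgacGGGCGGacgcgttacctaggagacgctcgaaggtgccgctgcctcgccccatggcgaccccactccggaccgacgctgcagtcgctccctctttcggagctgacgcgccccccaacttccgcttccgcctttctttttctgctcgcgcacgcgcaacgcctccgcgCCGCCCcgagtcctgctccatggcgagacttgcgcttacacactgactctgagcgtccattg
Rab8a promoter: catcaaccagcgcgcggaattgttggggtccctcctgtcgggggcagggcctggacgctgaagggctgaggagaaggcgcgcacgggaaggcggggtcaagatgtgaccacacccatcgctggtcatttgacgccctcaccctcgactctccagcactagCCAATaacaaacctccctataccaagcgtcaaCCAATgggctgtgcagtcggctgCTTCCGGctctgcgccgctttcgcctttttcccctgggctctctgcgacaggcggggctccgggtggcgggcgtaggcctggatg

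The other 6 are the central 300 bases, on the plus strand, of the intron peaks in Vps50 (chr6:3504857-3505156), Arl8b (chr6:108784846-108785145), Tbc1d8 (chr1:39379078-39379377), Rab8b (chr9:66915424-66915723), Rab40b (chr11:121368860-121369159) and Rab4a (chr8:123807039-123807338). They are shown because they were the 6 peaks called higher after the libraries were centred, as described further on. Capitals again mark the same 12 motifs.
Vps50 intron peak: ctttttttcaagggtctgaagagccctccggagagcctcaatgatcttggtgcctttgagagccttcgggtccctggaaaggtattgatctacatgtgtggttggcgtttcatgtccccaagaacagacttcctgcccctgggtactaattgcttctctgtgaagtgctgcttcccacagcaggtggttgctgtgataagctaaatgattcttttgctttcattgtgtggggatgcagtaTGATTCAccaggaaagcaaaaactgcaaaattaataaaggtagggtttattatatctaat
Arl8b intron peak: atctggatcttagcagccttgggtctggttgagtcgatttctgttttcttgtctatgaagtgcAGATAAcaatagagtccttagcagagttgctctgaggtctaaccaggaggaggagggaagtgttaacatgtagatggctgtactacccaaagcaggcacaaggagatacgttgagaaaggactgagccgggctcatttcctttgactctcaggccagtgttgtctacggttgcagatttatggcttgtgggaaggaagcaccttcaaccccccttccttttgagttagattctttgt
Tbc1d8 intron peak: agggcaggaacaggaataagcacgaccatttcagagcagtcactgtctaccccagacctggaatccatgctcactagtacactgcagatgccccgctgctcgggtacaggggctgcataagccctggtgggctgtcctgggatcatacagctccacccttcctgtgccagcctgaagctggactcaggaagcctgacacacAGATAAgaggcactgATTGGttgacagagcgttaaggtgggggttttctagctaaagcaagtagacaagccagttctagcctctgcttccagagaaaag
Rab8b intron peak: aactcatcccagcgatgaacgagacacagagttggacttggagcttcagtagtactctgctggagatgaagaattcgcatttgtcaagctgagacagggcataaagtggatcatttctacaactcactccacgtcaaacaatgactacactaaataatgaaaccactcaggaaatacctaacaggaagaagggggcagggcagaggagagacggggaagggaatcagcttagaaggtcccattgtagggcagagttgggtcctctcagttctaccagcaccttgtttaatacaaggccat
Rab40b intron peak: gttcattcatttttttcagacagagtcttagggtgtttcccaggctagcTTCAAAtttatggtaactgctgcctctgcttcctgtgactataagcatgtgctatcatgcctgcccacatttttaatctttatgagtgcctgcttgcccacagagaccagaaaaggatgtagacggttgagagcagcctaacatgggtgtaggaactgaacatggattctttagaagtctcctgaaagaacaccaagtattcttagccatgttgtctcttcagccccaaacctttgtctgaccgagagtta
Rab4a intron peak: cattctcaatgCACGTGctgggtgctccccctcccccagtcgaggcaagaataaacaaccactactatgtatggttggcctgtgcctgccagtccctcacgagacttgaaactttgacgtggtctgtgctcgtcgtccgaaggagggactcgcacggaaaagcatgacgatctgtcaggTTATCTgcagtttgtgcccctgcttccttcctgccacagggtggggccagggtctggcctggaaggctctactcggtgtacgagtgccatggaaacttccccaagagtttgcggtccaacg

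The Rab5a promoter held CACGTG at bases 16 to 21 and again at bases 156 to 161, and TGACGTCA at bases 223 to 230, counted from 1 at the 5′ end. The Rab5b promoter held CCAAT or its complement at 4 places, and the Rab8a promoter at 2. The 6 intron sequences held few matches. TGANTCA occurred once in Vps50, AGATAA once each in Arl8b, Tbc1d8 and Rab4a, and CACGTG once in Rab4a, whereas the Rab8b sequence held none of the 12. These matches are letters in a window and were not tested for binding.

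All 59 peaks were more accessible in Sin3B-/- than in Sin3B+/+ LT-HSCs, and none was less accessible. The level used here is the deposited normalized value of a peak in a library, which the steps described further on show to be scaled by 1 factor per library. The change is the difference between the genotypes' mean log2(level + 1), Sin3B-/- minus Sin3B+/+, tested two-sided with limma and Benjamini-Hochberg adjustment over all 5332 peaks. The adjusted p of the 59 ran from 5.11e-22 to 0.0219. Among all 5332 peaks 95.7% were called higher and 4.29% lower in Sin3B-/-, so 59 of 59 is close to the background. The genotypes did not overlap in any of the 59, with the lower Sin3B-/- library above the higher control, which held for 95.7% of the table too. The table lists only peaks that the authors had already called between these same libraries, so these calls are no independent support, and an exact permutation test of 2 libraries against 2 cannot give a p below 0.33. limma estimated a single spread for all peaks, and the SE of every change on the log2 scale was 0.22. Without Sin3B-/- replicate 2 the call held in 36 of the 59 (61.0%, beside 58.5% of all peaks called higher).

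**Figure D1:**
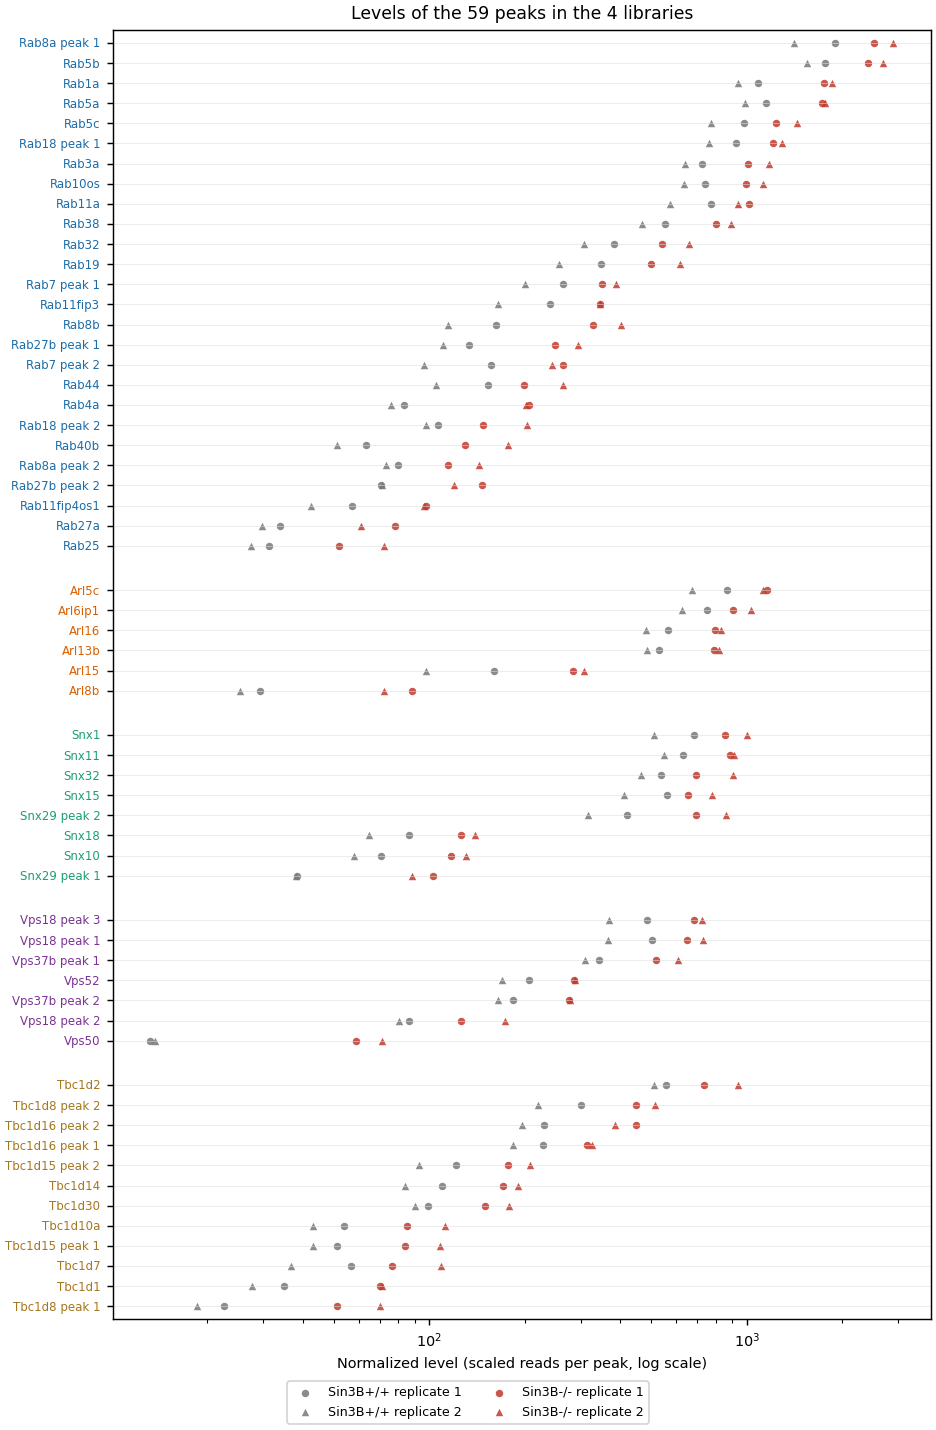
Normalized level (log axis) of each of the 59 peaks in the 4 libraries, 1 row per peak, grouped by gene family and ordered by mean level; grey marks are Sin3B+/+, red marks are Sin3B-/-, circles replicate 1 and triangles replicate 2. In every row both red marks lie to the right of both grey marks, and levels run from 13.23 at Vps50 in Sin3B+/+ to 2899 at Rab8a peak 1 in Sin3B-/-.

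The size of the rise was that of the table as a whole. The median log2 fold change of the 59 peaks was 0.80 (quartiles 0.66 and 1.0, range 0.49 to 2.18), beside 0.76 over all peaks (quartiles 0.63 and 0.97). At least a doubling, a log2 change of 1 or more, was seen in 15 of 59 peaks (25.4%), beside 25.6% of the table with a change of that size in either direction. By family, the medians were 0.80 for Rab, 0.65 for Arl, 0.74 for Snx, 0.73 for Vps and 0.93 for Tbc1d peaks.

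The general rise depends on the scaling between libraries. Each library's levels were whole multiples, within 0.02, of a step, which was 0.228 and 0.343 in the Sin3B+/+ and 0.625 and 1 in the Sin3B-/- replicates 1 and 2. The members' levels summed to 22579 and 18374 in Sin3B+/+ and to 31982 and 35448 in Sin3B-/-. Once divided by the steps, they came to 98960 and 53606 for the controls and 51188 and 35448 for Sin3B-/-. On that scale, which takes no account of library depth, the Sin3B-/- pair stood clear above the controls in 1 of the 59 peaks (Vps50) and clear below them in 29 (49.2%), and the genotypes overlapped in 29. Over all peaks of the table the shares were 0.619% above and 55.2% below. The depth of the libraries is unknown here, and a genome-wide rise cannot be told apart from an effect of the factors. For this reason the changes are also given after each library was centred on its own median over the table, which asks how a peak moved relative to the typical peak of the table.

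After centring, 6 of the 59 peaks passed the same limma test as higher in Sin3B-/- (10.2%) and 0 as lower. The background was 7.01% of all peaks higher and 4.29% lower, and the share of higher calls among all calls of the table fell from 95.7% to 62.0%. The median centred change of the members was 0.05, and that of all peaks 0.01. Of the 59 peaks, 34 had a centred change above 0 and 25 below. Centring uses the same 4 libraries and the same already called peaks, so these calls too are no independent support. The 6 were in introns of Vps50, Arl8b, Tbc1d8, Rab8b, Rab40b and Rab4a, and their levels follow. Among intron peaks that was 6 of 30, beside 218 of 2034 in the table.

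Vps50 is the subunit that distinguishes the EARP complex, which tethers recycling endosomes, from GARP. Its peak, chr6:3504824-3505189, lay 6584 bp downstream of the Vps50 start. The level was 13.23 and 13.71 in the Sin3B+/+ and 58.73 and 71 in the Sin3B-/- replicates, the lowest starting level of the set. The Sin3B+/+ libraries were almost equal and the genotypes were far apart, with a mean of 13.5 ± 0.34 (SD, n = 2) against 64.9 ± 8.68 (SD, n = 2), or 4.82-fold. The log2 fold change was 2.18, above 99.5% of the table, with an adjusted p of 5.11e-22 (limma, Benjamini-Hochberg) as deposited, and 1.43 ± 0.14 (SE) with an adjusted p of 0.000346 after centring.

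Arl8b puts lysosomes on kinesin and so moves them outward along microtubules. Its peak, chr6:108784823-108785168, was 1896 bp downstream of the Arl8b start and had levels of 29.43 and 25.36 in Sin3B+/+ and 88.10 and 72 in Sin3B-/-. Both Sin3B-/- libraries stood well above both controls. The log2 fold change was 1.51, and 0.76 ± 0.15 (SE) after centring, with an adjusted p of 0.0148 (limma, Benjamini-Hochberg). Tbc1d8, a TBC domain protein, had a peak at chr1:39379050-39379405 with levels of 22.59 and 18.51 in Sin3B+/+ and 51.23 and 70 in Sin3B-/-. The genotypes did not overlap, although the Sin3B-/- libraries differed from each other more than the controls did. This peak changed by 1.51, and by 0.75 ± 0.14 (SE) after centring, with an adjusted p of 0.0113 (limma, Benjamini-Hochberg). It lay deep in the gene, 99473 bp from the Tbc1d8 start, and the nearest annotated start, 11078 bp away, was that of Rpl31, a ribosomal protein gene.

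The other 3 were Rab genes. Rab8b, which with Rab8a carries Golgi-derived vesicles to the plasma membrane and the cilium, had levels of 162.00 and 114.48 in Sin3B+/+ and 329.27 and 403 in Sin3B-/- at chr9:66915371-66915776, 4114 bp into the gene. Rab40b, an atypical Rab with a SOCS box that joins a ubiquitin ligase, had levels of 63.20 and 51.41 in Sin3B+/+ and 129.96 and 177 in Sin3B-/- at chr11:121368789-121369229. Rab4a, which returns receptors quickly from early endosomes to the surface, had levels of 83.05 and 75.75 in Sin3B+/+ and 206.81 and 202 in Sin3B-/- at chr8:123806976-123807401, 1120 bp into the gene. In each of these the lowest Sin3B-/- library lay above the highest Sin3B+/+ library, and Rab4a had the closest replicates. The log2 fold changes were 1.41, 1.40 and 1.35. After centring they were 0.66, 0.64 and 0.60, with adjusted p of 0.0182, 0.0233 and 0.0161 (limma, Benjamini-Hochberg). The Rab40b peak was 19242 bp from the Rab40b start and nearer, at 14564 bp, to the start of Wdr45b.

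**Figure D2:**
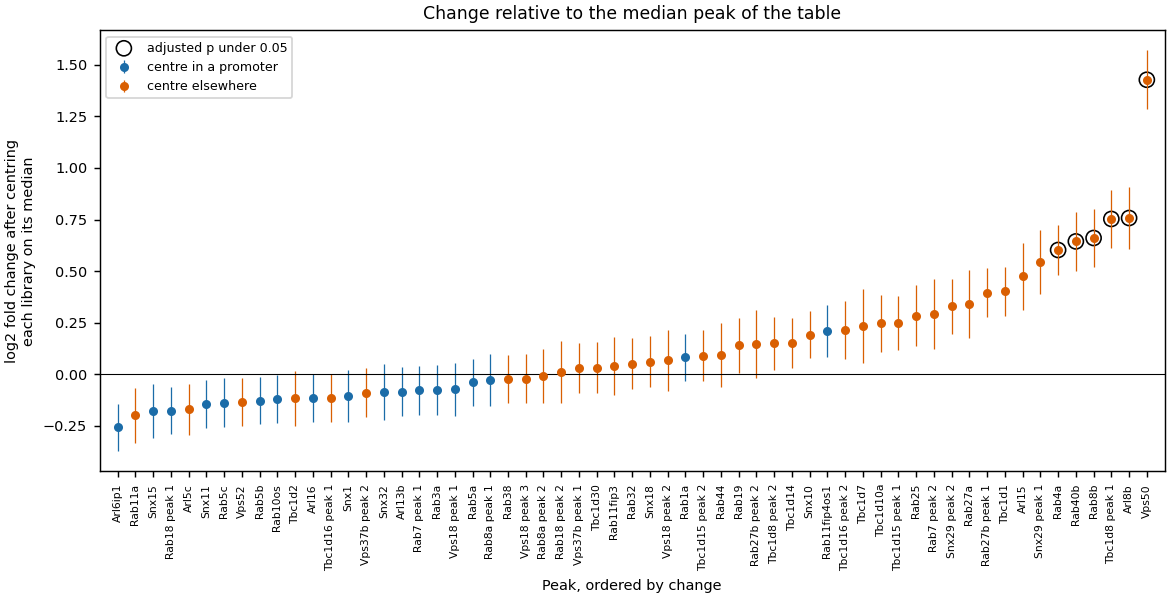
Centred log2 fold change, Sin3B-/- minus Sin3B+/+, of the 59 peaks in order of size, with bars of 1 SE from limma; blue peaks have their centre in a promoter, orange peaks elsewhere, and rings mark adjusted p under 0.05. The 6 ringed peaks are all orange, led by Vps50 at 1.43, and 16 of the 18 blue peaks lie below 0.

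Where a peak lay went with how much it changed. Its centre fell in a promoter, from 1000 bp upstream to 100 bp downstream of an annotated start, in 18 of 59 peaks (30.5%, beside 33.3% of the table), in an intron in 30 (50.8%, beside 38.1%), in an exon in 1 (Rab32) and between genes in 10 (16.9%, beside 21.2%). All 18 promoter peaks were at the promoter of the gene the table named. No promoter peak reached a log2 change of 1 (0 of 18, beside 8.50% of promoter peaks in the table), and their median was 0.66, beside 0.67 for promoters of the table. Off promoters 15 of 41 members did so (36.6%, beside 34.1%), with a median of 0.90, beside 0.83. In introns the members' median was 0.99, beside 0.84. After centring, 16 of the 18 promoter peaks were below 0 (88.9%, beside 70.9% of promoter peaks in the table) and 32 of the 41 others above it (78.0%, beside 61.7%). Promoter peaks were also the more accessible ones, with a median level of 795, against 150 off promoters. Across the 59 peaks Spearman's rho between change and mean level was -0.75, beside -0.52 across the table. This is across peaks that share the same 4 libraries, and a table chosen by a call holds weak peaks only when their change is large.

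**Figure D3:**
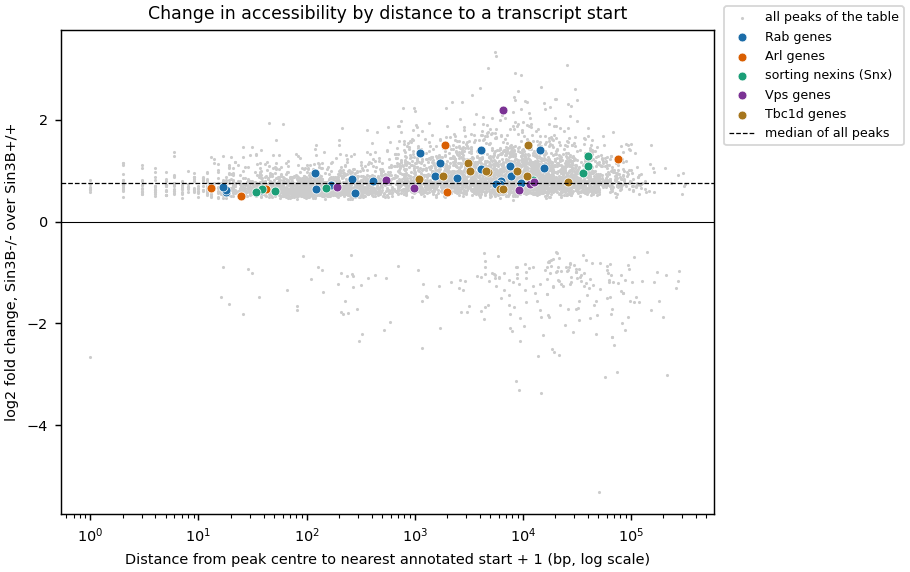
Log2 fold change, Sin3B-/- minus Sin3B+/+, against the distance from the peak centre to the nearest annotated start plus 1 bp (log axis), for all 5332 peaks in grey and the 59 in colour by family; the dashed line is the median of all peaks, 0.76. Coloured peaks within 100 bp of a start lie below the line, and those at or above 1 are farther out.

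**Figure D4:**
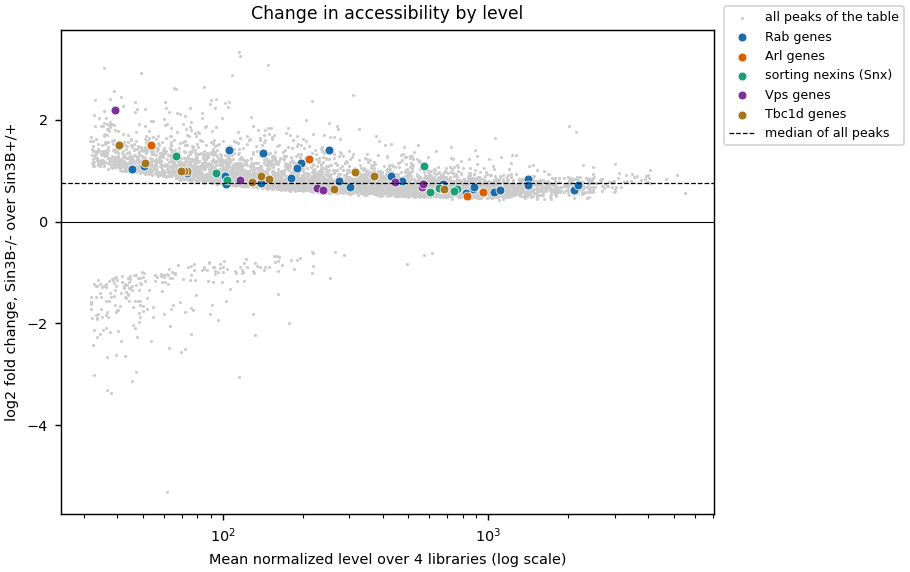
Log2 fold change against mean level over the 4 libraries (log axis), in the same colours. The largest changes, among them Vps50 at 2.18, are at low levels, and the table has no small changes at low levels.

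Families differed in where their peaks were. Promoters held 10 of 26 Rab peaks, 3 of 6 Arl peaks, 4 of 8 Snx peaks and 1 of 7 Vps peaks, but 0 of 12 Tbc1d peaks, of which 11 were in introns. Of the 197 annotated protein-coding genes with these names, 46 (23.4%) had at least 1 peak in the table, beside 3447 of 21951 (15.7%) of all protein-coding genes. The share was 20 of 69 for Rab, 6 of 27 for Arl, 7 of 30 for Snx, 4 of 35 for Vps and 9 of 30 for Tbc1d genes. A gene without a peak here may be accessible and unchanged, or not accessible, and the table does not say which. It may also hold a peak that the paper counts and the table lacks.

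Among the Rab GTPases, all 3 Rab5 paralogues had a peak. Rab5a, Rab5b and Rab5c, which direct fusion of endocytic vesicles with early endosomes, each had 1 peak, at the promoter. The Rab5a peak had levels of 1149.73 and 985.10 in Sin3B+/+ and 1722.58 and 1766 in Sin3B-/-. Rab5b had 1765.09 and 1547.23 against 2410.49 and 2694, and Rab5c had 982.25 and 774.30 against 1239.61 and 1440. All 3 were among the most accessible peaks of the set and none overlapped between genotypes, with the narrowest gap in Rab5c. The log2 fold changes were 0.71, 0.62 and 0.61 with adjusted p of 0.0015, 0.00462 and 0.00521 (limma, Benjamini-Hochberg). After centring they were -0.04, -0.13 and -0.14, and none of the 3 passed the test relative to the typical peak of the table. The Rab5b and Rab5c calls were also lost without Sin3B-/- replicate 2, and that of Rab5c without Sin3B+/+ replicate 2.

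The recycling Rabs had peaks centred in introns, although that of Rab11a was 1815 bp wide and also covered the gene start. Beside the Rab4a intron peak described above, Rab11a, which runs the slower return through the recycling endosome, had a peak 280 bp into the gene with levels of 771.43 and 573.44 in Sin3B+/+ and 1015.31 and 938 in Sin3B-/-, a log2 change of 0.55. Leaving out any 1 of 3 libraries, Sin3B+/+ replicate 2 or either Sin3B-/- replicate, ended this call. Rab25, an epithelial relative of Rab11a, had an intron peak of low level that changed by 1.04, and the Rab11 effector Rab11fip3 one that changed by 0.79. The antisense transcript Rab11fip4os1 had the promoter peak with the largest change in the set, 0.96. Its levels were only 57.04 and 42.50 in Sin3B+/+ and 97.47 and 96 in Sin3B-/-, and it lay 32069 bp from the nearest Rab11fip4 start.

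On the secretory route, Rab1a, needed between the endoplasmic reticulum and the Golgi, had promoter levels of 1086.53 and 941.57 in Sin3B+/+ and 1751.32 and 1858 in Sin3B-/-. Its log2 change of 0.83 (0.08 after centring) was the largest among the promoter peaks with a mean level above 1000. Rab8a peak 1, at the promoter that it shares with the transcript Gm16091, was the most accessible peak of the 59, with 1901.99 and 1407.38 in Sin3B+/+ and 2523.58 and 2899 in Sin3B-/-. Sin3B+/+ replicate 1 was 1.35 times replicate 2 there, and the change was 0.72. Rab8a peak 2 was 22112 bp further on, near the start of Hsh2d, at a far lower level (79.63 and 73.35 against 114.96 and 144), with nearly the same change, 0.74. After centring neither Rab8a peak was above 0 (-0.03 and -0.01), while the Rab8b intron peak was. Rab10os, antisense to Rab10, had a promoter peak with a change of 0.63, which lay 74258 bp from the nearest Rab10 start. Rab3a, a Rab of regulated exocytosis in neurons, had a promoter peak 12 bp from the start that changed by 0.68, with levels of 723.74 and 639.94 against 1007.18 and 1174.

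Rabs of late endosomes and secretory lysosomes followed. Rab7, which takes late endosomes to lysosomes, had a promoter peak with levels of 264.90 and 200.52 in Sin3B+/+ and 349.26 and 388 in Sin3B-/-, and a second peak 15544 bp upstream with 156.29 and 96.32 against 264.92 and 244. The Sin3B+/+ libraries differed 1.62-fold at the upstream peak, which is wide for replicates. The changes were 0.67 and 1.04. Rab27a and Rab27b dock secretory granules in blood cells and melanocytes. Rab27b peak 1 had 133.93 and 110.71 against 248.67 and 295 (log2 change 1.15) and peak 2, 6558 bp away, 70.50 and 70.95 against 146.83 and 120 (0.90), and the Rab27a intron peak changed by 1.09. Rab32 and Rab38, which build lysosome-related organelles, changed by 0.80 and 0.73. The Rab32 peak was centred in an exon and covered the gene start, and the Rab38 peak lay 6200 bp upstream. Rab44, a large Rab of mast cells, had a peak 2477 bp upstream that changed by 0.85, and Rab19 one 1525 bp upstream that changed by 0.89. Rab18, of the endoplasmic reticulum and lipid droplets, had a promoter peak with 926.58 and 760.25 against 1211.49 and 1291 (0.57) and an intron peak with 106.33 and 98.03 against 148.08 and 204 (0.76).

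Of the 6 Arl peaks 3 were in promoters, 2 in introns and 1 between genes, and both intron peaks, at Arl8b and Arl15, changed by more than the others. Arl13b, a cilium GTPase mutated in Joubert syndrome, had a promoter peak 12 bp from the start, with 527.75 and 485.69 in Sin3B+/+ and 789.75 and 819 in Sin3B-/-, a change of 0.67. Arl16 had a peak in a promoter shared with Hgs, the ESCRT-0 subunit that binds ubiquitinated receptors, and changed by 0.64. Arl6ip1 changed least of all 59, by 0.49, with 749.98 and 626.23 against 905.96 and 1029. Its call and that of Arl5c were lost without any 1 of the same 3 libraries as that of Rab11a. The Arl5c peak, with 864.75 and 671.13 against 1158.39 and 1122 (0.58), lay 1981 bp from the start of Plxdc1 and farther, 7504 bp, from that of Arl5c. Arl15, by contrast, had an intron peak 75936 bp into the gene with 160.40 and 98.03 against 283.04 and 307, a change of 1.23. Its Sin3B+/+ libraries differed 1.64-fold, the widest replicate gap among the 59, and after centring its change of 0.47 missed the threshold (adjusted p = 0.124, limma, Benjamini-Hochberg).

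Of the sorting nexins, Snx1, which with partners shapes retromer-linked tubules, and Snx32, a relative of the same SNX-BAR kind, had promoter peaks. Snx1 had 683.81 and 510.03 in Sin3B+/+ and 854.11 and 1004 in Sin3B-/- (0.65), and Snx32 changed by 0.66. Snx11, with 632.48 and 549.45 against 885.35 and 913 (0.61), and Snx15, with 560.38 and 409.60 against 654.79 and 777 (0.57), were also promoter peaks, and all 4 fell below 0 after centring. The 2 Snx29 peaks lay in an intron, only 110 bp apart, and so may be parts of 1 accessible region. Snx29 peak 1 had 38.33 and 38.05 against 103.09 and 88, and peak 2 had 420.51 and 317.05 against 694.16 and 862. Peak 2 was far more accessible, yet the log2 changes were 1.30 and 1.08, the largest Snx changes. After centring, peak 1 was at 0.54 with an adjusted p of 0.0659 (limma, Benjamini-Hochberg), just outside the 6 that passed. Snx10, needed for the acid-secreting membrane of osteoclasts, had an intron peak with 70.28 and 57.93 against 116.84 and 131 (0.94), and Snx18, a SNX-BAR protein with an SH3 domain, one between genes (0.81).

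The Vps genes were sparse, and their peaks were mostly modest apart from Vps50. Vps18, the shared core subunit of the HOPS and CORVET tethers, was the only one of the 4 core genes with a peak, and it had 3. Its promoter peak had 504.70 and 364.70 in Sin3B+/+ and 647.92 and 730 in Sin3B-/- (0.68), peak 2, only 191 bp further, had 86.25 and 80.55 against 126.21 and 173 (0.82), and peak 3, 11563 bp downstream of the start, had 484.85 and 369.84 against 683.53 and 724 (0.73). Vps37b, of the ESCRT-I complex that sorts ubiquitinated cargo into multivesicular bodies, was the only Vps37 paralogue of 4 with a peak. Both of its peaks were in introns, with 342.48 and 310.54 against 517.96 and 609 (0.78) and with 184.13 and 165.21 against 275.54 and 278 (0.66). The Vps52 peak (0.62) was 12992 bp from the start of Vps52, a subunit of both GARP and EARP. Of 5 GARP and EARP genes, Vps50 and Vps52 had a peak, and of 4 retromer core genes none did.

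Tbc1d genes had no promoter peak, and their intron peaks were of low to middling level. Tbc1d1, which in muscle controls glucose transporter vesicles, had 34.91 and 27.76 in Sin3B+/+ and 69.98 and 71 in Sin3B-/-, a change of 1.15. Tbc1d15, a GAP for Rab7 that works at mitochondria, had 51.11 and 43.19 against 83.72 and 108 (1.0) in its intron and 121.61 and 93.23 against 176.82 and 208 (0.84) 1095 bp upstream of its start. Tbc1d16, a GAP for Rab4a, had peak 1 with 229.08 and 184.06 against 314.28 and 326 (0.64) and peak 2 with 230.68 and 196.06 against 449.86 and 385 (0.97). The 2 Tbc1d16 peaks started from like levels in Sin3B+/+ and separated in Sin3B-/-, a difference that was not tested. Tbc1d2, a GAP for Rab7 in autophagy, had the most accessible Tbc1d peak, with 556.04 and 510.03 against 731.64 and 936 (0.63). Tbc1d8 peak 2, 38339 bp from peak 1, had 300.72 and 220.40 against 449.86 and 516 (0.90). Tbc1d7, a subunit of the TSC complex that restrains mTORC1, changed by 0.98, Tbc1d10a by 1.0, Tbc1d14, which binds Rab11 in autophagy, by 0.90, and Tbc1d30 by 0.78.

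In 10 pairs of neighbouring peaks of the same gene beside Snx29, gaps ran from 191 to 38339 bp, and such peaks are not independent of each other. Replicate 1 of Sin3B+/+ was the higher control in 57 of the 59 peaks, by a median of 1.21 times (1.20 over the table), and replicate 2 of Sin3B-/- the higher one in 49, by 1.13 times (1.09). Over the table, Sin3B+/+ replicate 1 was the higher control in 4675 peaks and replicate 2 in 656. For Sin3B-/-, replicate 2 was the higher one in 3840 and replicate 1 in 1491. How much of the spread between replicates all peaks shared was not tested. For 45 of the 59 peaks the nearest annotated start was that of the named gene, and for 14 it was another gene's. These 45 were all higher in Sin3B-/-, beside 95.7% of all peaks, with a median change of 0.78, beside 0.76. At least a doubling was seen in 10 of the 45, beside 25.6% of the table with a change of that size in either direction.

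The other genes of membrane traffic were called at about the rates of the table after centring. Of 338 annotated genes in 6 lists of Rab regulators, Arf regulators, endosomal sorting partners, coats, SNAREs and tethers, 103 had a peak (30.5%, beside 15.7% of all protein-coding genes). Of their 132 peaks 131 were higher (99.2%, beside 95.7% of all peaks) and 1 lower in Sin3B-/-. After centring 10 were higher (7.58%, beside 7.01%) and 1 lower. By list, the centred higher calls ran from 0 of 28 SNARE peaks to 3 of 12 tether peaks (25%), so single lists rest on few peaks. Median log2 changes were 0.76 for Rab regulators and effectors (25 of 73 genes, 31 peaks higher and 1 lower), 0.84 for Arf exchange factors and GAPs (16 of 48, 25 higher), 0.92 for retromer, ESCRT, HOPS and WASH partners (10 of 58, 16 higher), 0.76 for coats (17 of 64, 19 higher), 0.79 for SNAREs (25 of 48, 28 higher) and 0.96 for tethers (10 of 47, 12 higher). The Arf list also held genes of other kinds, among them the tubulin folding cofactor Tbcd, whose peaks changed by 0.91 and 0.73. The peak that fell was in an intron of Sgsm1, which has a TBC domain too and binds Rab proteins. It had 192.80 and 168.64 in Sin3B+/+ and 99.97 and 93 in Sin3B-/-, a log2 change of -0.90 with an adjusted p of 8.88e-05 (limma, Benjamini-Hochberg). The largest rise was at Trip11, a Golgi tether (2.16, from 13.69 and 10.97 to 49.36 and 69). That peak lies in an intron of Trip11 but 998 bp upstream of the start of Gm20702, and so counts as a promoter peak. The next were at introns of Ap5z1, of the AP-5 adaptor (2.02, from 37.65 and 27.42 to 149.33 and 120), and Uvrag, a partner of the endosomal phosphoinositide kinase (1.83, from 78.95 and 52.10 to 213.06 and 250). These 3 passed after centring as well.

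The composition of the 59 peaks was close to that of the table. Median width was 663 bp (685 in the table) and median GC content 51.2% (53.3%). In the central 300 bases, CACGTG was found in 8 of 59 members (13.6%), beside 6.86% of all peaks and 7.17% of the RefSeq promoters of that length. These 8 were at Arl15, Rab10os, Rab4a, Rab5a, Snx32, Tbc1d14, Tbc1d16 and Tbc1d7. AGATAA was found in 13 (22.0%, beside 17.9%), of which 12 were off promoters, among them the Arl8b, Tbc1d8 and Rab4a peaks. CCAAT was found in 22 (37.3%, beside 35.5%), and at promoters in 13 of 18 (72.2%), beside 50.1% of the table's promoter peaks. GGGCGG was found in 19 (32.2%, beside 30.4%), TTTGAA in 6 (10.2%, beside 13.6%), and TGANTCA, TGTGGTTT and CCGGAAG in 4 each (6.78%, beside 10.4%, 5.29% and 9.27%). GCGCATGC was found in 3 (5.08%, beside 1.69%) and TGACGTCA in 1 (Rab5a). TTTCGCGC and AGGTGGCAG were found in none of the 59 windows, and occur in 0.263% and 1.43% of all. With 59 windows, differences of this size rest on a few peaks.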

How the data were processed

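ATAC-Seq was analysed in 4 libraries, 2 Sin3B+/+ and 2 Sin3B-/-, each amplified for 12 cycles and grouped by its labels. The authors trimmed and aligned reads (Trimmomatic, Bowtie2), removed duplicates, called peaks with MACS2 and tested them with DiffBind and DESeq2, and deposited those with an FDR under 0.05. The deposited values per library are a signal that DiffBind normalized. Their steps point to reads scaled by a factor of each library, and how the factors were set is not given in the sources used here. Other deposited columns hold the authors' mean log2 levels, fold changes, p-values and FDR, and were not used. The labels name build mm9, but the table's gene positions equal GENCODE M21 (GRCm38) for 96.6% of 5330 gene entries, so GRCm38.p6 was used.

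log2(level + 1) was fitted with limma 3.58.1 (R 4.3.3), genotype only, over all 5332 peaks without a filter, and called at an adjusted p under 0.05. On simulated levels the fit recovered 100% of 200 peaks changed by a log2 of 1 up or down, with 0.195% false calls. The simulated spread was set smaller than that of the real libraries, and no library was shifted. These rates therefore do not describe the real table, where most peaks were higher in Sin3B-/-. Named peaks were, per family, the 3 with the largest change, the 2 with the highest level, the promoter peak nearest its start, and every gene with 2 or more peaks. Others were named for their role. Members, lists and tests were chosen with earlier results of these data known. RefSeq promoters were matched for 35 of 48 genes. Count tests had been planned for raw counts or reads recovered from the steps. A check of the lowest values did not accept the steps as whole reads, so none was run. Replicates are pools of different mice. Alternatives were 2 other pseudocounts (0.5 and 10), a mean level of at least 50, centred libraries, Holm adjustment, a replicate block, other promoter windows and leaving out each library. Python 3.11.15, numpy 2.4.6, pandas 2.3.3, scipy 1.17.1, matplotlib 3.10.9 and pysam 0.24.0 were used.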

Additional observations from a re-analysis of the deposited data

How the results depend on the processing

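Centring the libraries was the choice that moved the results most: 6 of 59 peaks were then called higher in place of 59, the median log2 change was 0.0505 in place of 0.80, and 1 peak at least doubled in place of 15. It turned 17 of the 38 peaks named by the rule below 0: Arl13b (-0.0857), Arl5c (-0.17), Arl6ip1 (-0.26), Rab18 peak 1 (-0.18), Rab3a (-0.077), Rab5b (-0.13), Rab7 peak 1 (-0.0791), Rab8a peaks 1 and 2 (-0.0274 and -0.0084), Snx1 (-0.10), Snx11 (-0.14), Snx15 (-0.18), Tbc1d16 peak 1 (-0.11), Tbc1d2 (-0.12), Vps18 peaks 1 and 3 (-0.0728 and -0.0214) and Vps37b peak 2 (-0.0892). This follows from the construction, which subtracts the table's median change.

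With Holm adjustment 20 were called higher (27.6% of all peaks were). Leaving out 1 library, where the lone library of a genotype is assumed to vary like the others, gave 36 to 59 higher calls, medians of 0.67 to 0.94 and 9 to 27 peaks at least doubled. The 36 were without Sin3B-/- replicate 2 (58.5% of all peaks), with 51 without Sin3B+/+ replicate 2 (82.2%) and 56 without Sin3B-/- replicate 1 (86.6%), and 36 peaks kept their call in all 4 settings. Of the doubled peaks there were 27 when Sin3B+/+ replicate 1 was left out and 9 when Sin3B+/+ replicate 2 was. Leaving out the higher control of a peak raises its change by construction, and replicate 1 was the higher control in 57 of the 59. Why the controls differed was not tested. Promoter peaks were 30 when centres within 3000 bp of a start were counted, since that window is wider. No member was called lower in any setting. This says little about the settings, since in all 59 both Sin3B-/- libraries already lay above both controls. Both other pseudocounts left the calls of the 38 named peaks as they were. The filter kept those of the 36 it retained, and removed Vps50 and Tbc1d8 peak 1.

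Same-numbered libraries came from different mice, and their deviations from the group means had a correlation of -0.10 across peaks. Such a correlation does not see a shift shared by a whole library. It therefore cannot tell whether same-numbered libraries were prepared together. With the replicate block 59 members were called higher (5064 peaks of the table, 5103 without it). The crossed pairing, added after the data were seen, gave 59 and 5103. Planned count tests on reads recovered from the steps were not run, since a check of the lowest values did not accept the steps as whole reads. Depth is unknown here, which limits every level.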
